A study of Mus musculus with 12 samples.

Results

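The data described here concern 10 genes of the *Sox* family, which encode transcription factors with an HMG box, out of 27998 genes in the single-cell tables and 19 numbered *Sox* genes among them. The members were chosen by symbol, and the same 10 were found by Entrez identifier in the table of neurosphere counts. They are *Sox1*, *Sox2* and *Sox3* (group SOXB1), *Sox21* (SOXB2), *Sox4* and *Sox11* (SOXC), *Sox5* and *Sox6* (SOXD), and *Sox8* and *Sox9* (SOXE). Single-cell RNA was measured in the dentate gyrus of P7 mice, with 1 library of wild-type animals, 1 of *Larp7* f/f;nestin-Cre animals and 1 of animals with the same allele and Emx1-Cre, and each library combined 3 to 4 gyri of littermates. Bulk RNA was measured in neurospheres grown from P1 dentate gyrus, replated and kept for 2 days with 20 ng/ml bFGF, from wild-type (2 libraries) and *Larp7* f/f;Emx1-Cre animals (3 libraries, called *Larp7* knockout). Wild-type animals carried the floxed *Larp7* allele without Cre. The nestin-Cre driver acts across the central nervous system and in some other organs, and the Emx1-Cre driver acts in progenitors of the dorsal forebrain. Larp7 binds the 7SK RNA and keeps the transcription factor P-TEFb inactive.

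SOX proteins bind DNA through the HMG box and hand over from one group to the next as a neural cell matures. SOXB1 proteins keep neural stem and progenitor cells undifferentiated, and *Sox21*, a relative that mostly represses, counters them. SOXC proteins switch on neuronal genes in newborn neurons, SOXD proteins lack a transactivation domain and modulate the other groups, and SOXE proteins start and maintain the glial fates. In the dentate gyrus, radial glia-like stem cells (RGLs) produce neuronal intermediate progenitor cells (nIPCs), which produce neuroblasts and then granule neurons. The question put to the data was how the 10 genes are distributed along this lineage and in glia, and whether their levels differ between genotypes.

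In RefSeq (GRCm38.p6), the SOXB and SOXC members are genes of a single exon. *Sox2* lies at chr3:34649995-34652461 on the plus strand, within the long non-coding gene *Sox2ot* of the same strand, and *Sox1* at chr8:12395519-12399555 within *Sox1ot*, also of the same strand. *Sox4* (chr13:28948919-28953699, minus strand) lies within the long non-coding gene *Gm46405* of the same strand, while *Sox11* (chr12:27334268-27342718, minus strand) overlaps no other annotated gene. *Sox3* (chrX:60891366-60893430) and *Sox21* (chr14:118233233-118237030) are on the minus strand, and *Sox21* overlaps *Gm4675* on the other strand. *Sox8* (chr17:25565893-25570686, minus strand) and *Sox9* (chr11:112782210-112787757, plus strand) have 3 exons each. *Sox5* (chr6:143828425-144782287) and *Sox6* (chr7:115470872-116040776), both on the minus strand, are long genes with 8 to 15 and 14 to 17 exons in their curated transcripts. Reads of a gene and of an overlapping one could be mixed, since how the bulk counts treat shared reads and strand is not stated in the sources used here. In the neurospheres *Sox2ot* had 12.3 to 21.7 CPM (counts scaled to a common library total) over the 5 libraries and *Sox2* 341 to 428.

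Promoters are shown for the 2 pairs of genes with opposite courses along the lineage, *Sox1* and *Sox2*, which were high at its start, and *Sox4* and *Sox11*, which were high at its end. Each line is the 250 bases before the RefSeq start of the gene, read 5′ to 3′ on its own strand, and capitals mark matches of ACAANG (the core that SOX proteins bind; CNTTGT on the other strand) or of the E-box CANNTG (bound by proneural bHLH proteins; the same on both strands).
Sox1: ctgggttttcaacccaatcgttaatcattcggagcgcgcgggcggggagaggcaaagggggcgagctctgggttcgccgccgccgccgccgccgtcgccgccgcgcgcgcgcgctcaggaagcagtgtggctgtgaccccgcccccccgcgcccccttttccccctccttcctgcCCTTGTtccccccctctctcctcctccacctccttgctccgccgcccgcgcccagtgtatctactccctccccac
Sox2: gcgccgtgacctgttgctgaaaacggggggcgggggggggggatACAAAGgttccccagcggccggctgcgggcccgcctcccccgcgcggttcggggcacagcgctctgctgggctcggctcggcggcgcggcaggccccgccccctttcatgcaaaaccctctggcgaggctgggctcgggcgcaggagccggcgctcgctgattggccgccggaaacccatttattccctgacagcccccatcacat
Sox4: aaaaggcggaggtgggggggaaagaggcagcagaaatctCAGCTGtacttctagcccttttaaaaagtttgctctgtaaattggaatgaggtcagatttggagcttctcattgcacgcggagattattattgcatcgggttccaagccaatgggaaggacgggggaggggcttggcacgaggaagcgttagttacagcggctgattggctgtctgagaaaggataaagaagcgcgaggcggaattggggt
Sox11: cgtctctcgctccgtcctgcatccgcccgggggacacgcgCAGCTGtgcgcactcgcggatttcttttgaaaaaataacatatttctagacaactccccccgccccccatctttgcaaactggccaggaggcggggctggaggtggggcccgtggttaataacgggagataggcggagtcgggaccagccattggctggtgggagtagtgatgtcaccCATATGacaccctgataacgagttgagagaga
These windows are chr8:12395269-12395518 (plus), chr3:34649745-34649994 (plus), chr13:28953700-28953949 (minus) and chr12:27342719-27342968 (minus). The *Sox1* and *Sox2* windows held 1 match of ACAANG each and none of CANNTG, and the *Sox4* and *Sox11* windows held none of ACAANG and 1 and 2 of CANNTG. No matches overlapped. Of all 32851 promoter windows in the table, 36.3% held ACAANG and 66.2% held CANNTG. The *Sox4* and *Sox11* windows shared the E-box CAGCTG, which began 211 bases before the start of *Sox4* and 210 bases before that of *Sox11*. CAGCTG was looked for after the sequences had been seen, and 13% of all windows held it. CG pairs numbered 29 in the *Sox1*, 27 in the *Sox2*, 11 in the *Sox4* and 17 in the *Sox11* window, against a median of 6 over all windows. Promoters were matched for 8 of the 10 members (not for *Sox3* and *Sox9*). The other genes that were high at the start of the lineage did not all follow the pattern of the windows shown. The *Sox5* window (chr6:143947107-143947356, minus strand) lies within the span of the gene, unlike the windows shown. It held 1 match of ACAANG and 0 of CANNTG, the window of *Sox8* 0 and 1, and that of *Sox21* neither. The windows of *Sox6*, which has several, also lie within the gene and held 0 to 4 of ACAANG and 1 to 3 of CANNTG. A match of letters is not evidence of binding.

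Over 12876, 7177 and 6821 barcodes there were 28918492 UMIs in the wild-type, 26689878 in the nestin-Cre and 28537738 in the Emx1-Cre library. Cells with over 500 genes and under 15% mitochondrial UMIs numbered 10997, 6685 and 6531, and the libraries shared 11 to 23 barcodes pairwise. The wild-type library stood apart, with a median of 1782 UMIs per cell against 3644 and 3873, 1011 erythroid-like cells against 14 in either mutant library, and 3203 cells of unnamed clusters (median 1066 UMIs) against 303 and 345. Cells were clustered without any *Sox* gene, and clusters were named only from fixed markers. The RGL-like class (997, 1062 and 1148 cells in the wild-type, nestin-Cre and Emx1-Cre libraries), the nIPC-like class (1582, 1387 and 1461) and the neuroblast-like class (1400, 2113 and 1883) form the granule lineage here, since no cluster had the markers of granule neurons. Glia comprised astrocyte-like (780, 593 and 741), glial progenitor-like (272, 183 and 171) and OPC-like cells (258, 327 and 310; OPC, oligodendrocyte precursor cell). *Prox1*, which marks the granule lineage of the dentate gyrus, stood at 616, 998 and 915 CPM in neuroblast-like cells. The titles of the 2 mutant libraries and their genotype entries name opposite Cre drivers, and the titles were followed.

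*Larp7*, the targeted gene, was checked first. In nIPC-like cells it stood at 82.4 CPM (95% interval 75.0 to 90.2) in wild-type, 11.5 (8.95 to 14.6) in nestin-Cre and 15.2 (12.4 to 18.5) in Emx1-Cre. In RGL-like cells the values were 52.2, 12.1 and 11.4 CPM. Both mutant libraries were thus low in *Larp7* in the lineage, while in endothelial-like cells, which do not derive from neural progenitors, *Larp7* stood at 51.7, 45.9 and 43.8 CPM. In microglia-like cells, which do not derive from them either, it stood at 67.0 CPM (55.0 to 80.7) in wild-type, 35.1 (26.6 to 45.4) in nestin-Cre and 37.4 (26.2 to 51.8) in Emx1-Cre, so it was lower there too, by less than in the lineage. Where its UMIs lie relative to the deleted exon was not tested. Both libraries look alike in this respect, so *Larp7* does not tell which label of the drivers is right.

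With 1 library per genotype there was no replicate check and no test between genotypes. Levels are CPM of all UMIs summed over a class, and their intervals (exact Poisson for levels, exact conditional binomial for ratios) cover counting error only. UMIs are read at the 3′ end, so CPM count molecules of a gene, and fewer molecules per cell cannot be told apart from a larger total of other RNA. A difference was counted when it was at least 1.5-fold with at least 100 UMIs over both libraries. Both mutant libraries were set against the same wild-type library, so their ratios share its errors.

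RNA of lineage genes was also found in cells that should lack it. In microglia-like cells *Sox11* stood at 1241 CPM in wild-type, 666 in nestin-Cre and 815 in Emx1-Cre, which is 2.81, 2.40 and 3.20 UMIs per cell. *Sox4* in the same cells stood at 1137, 717 and 785 CPM, *Sox2* at 148, 51.7 and 97.7 and *Sox9* at 118, 51.1 and 61.3. In CPM the wild-type library was the highest for each of these 4 genes, but its microglia-like cells were also the shallowest (median 1618 UMIs against 3279 and 3320). In UMIs per cell the Emx1-Cre library was the highest for *Sox11*, *Sox4* (2.57, 2.58 and 3.09) and *Sox2* (0.335, 0.186 and 0.384) and the wild-type library for *Sox9* (0.267, 0.184 and 0.241). Levels per cell at or below those of microglia-like cells were therefore not read as expression. They are not a floor of the library, since wild-type *Sox11* stood at 237 CPM in 1 RGL-like cluster (cluster 12), below the 1241 of microglia-like cells. Such a level thus leaves expression not shown and does not show that it is absent.

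Along the lineage the family divided into genes that were high at its start and genes that were high at its end. *Sox2*, *Sox9*, *Sox1*, *Sox3*, *Sox5*, *Sox6*, *Sox8* and *Sox21* were highest in RGL-like, lower in nIPC-like and lowest in neuroblast-like cells in each of the 3 libraries, and *Sox4* and *Sox11* took the reverse order in each. Over the 3 libraries the mean of *Sox2* went from 758 CPM ± 75.8 (SD, n = 3 libraries) in RGL-like cells to 342 ± 27.9 in nIPC-like and 61.7 ± 13.5 in neuroblast-like cells. That of *Sox11* went from 686 ± 128 through 3481 ± 495 to 4594 ± 343 CPM. The order of the classes is a description of these libraries, without a test.

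**Figure D1:**
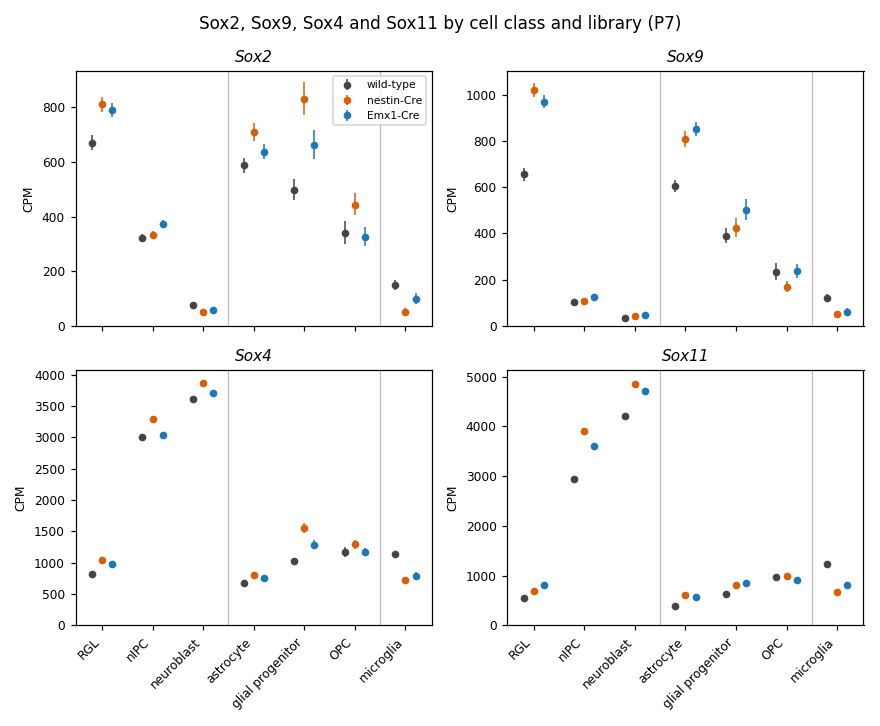
Level of *Sox2*, *Sox9*, *Sox4* and *Sox11* (CPM, linear axes from 0) in the RGL-like, nIPC-like and neuroblast-like classes, in 3 glial classes and in microglia-like cells, with 1 point per library and bars for the exact Poisson 95% interval (counting error only). *Sox2* and *Sox9* were highest in RGL-like, astrocyte-like and glial progenitor-like cells, and *Sox4* and *Sox11* were highest in neuroblast-like cells, with the lowest of these values at 3606 CPM (wild-type *Sox4*).

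*Sox2*, the central SOXB1 factor of stem cells, stood at 671, 812 and 790.2 CPM in RGL-like cells of the wild-type, nestin-Cre and Emx1-Cre libraries. In nIPC-like cells it stood at 321, 331 and 373 CPM, and in neuroblast-like cells at 76.2, 49.4 and 59.5. The order was the same in every library, and the values of the 3 classes did not overlap. In neuroblast-like cells *Sox2* gave 0.225, 0.177 and 0.222 UMIs per cell against 0.335, 0.186 and 0.384 in microglia-like cells, so its expression there was not shown. Among RGL-like cells with at least 1500 UMIs, each thinned to that number, 60.8%, 69.1% and 69.4% held a *Sox2* UMI (105, 38 and 51 shallower cells were left out), with 79.0%, 90.8% and 91.7% over all RGL-like cells before thinning (median depths 3122, 3765 and 3762 UMIs). The same share was 14.9%, 5.33% and 8.23% in microglia-like cells after thinning, where 336, 57 and 14 cells were left out, and 23.8%, 9.98% and 13.9% before (median depths 1618, 3279 and 3320 UMIs).

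*Sox1*, a SOXB1 gene with a narrower range, stood at 102, 157 and 108 CPM in RGL-like cells and at 53.0, 54.5 and 58.7 in nIPC-like cells. In neuroblast-like cells it stood at 7.50, 4.23 and 4.00 CPM, below the 28.6, 12.3 and 15.6 of microglia-like cells. The nestin-Cre library was the high one in RGL-like cells, and the others lay within 1.1-fold of each other. *Sox3*, the third SOXB1 gene, stood at 53.1, 48.1 and 49.2 CPM in RGL-like cells and at only 8.72, 4.84 and 6.02 in nIPC-like cells. Microglia-like cells held 9.74, 3.69 and 5.19 CPM, so its CPM in nIPC-like cells was already near theirs. Per cell, nIPC-like cells held 0.031, 0.021 and 0.027 *Sox3* UMIs against 0.022, 0.013 and 0.020 in microglia-like cells, slightly more in each library.

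*Sox21*, the SOXB2 repressor, was higher in glia than in the granule lineage. It stood at 69.7, 85.2 and 80.6 CPM in OPC-like and 80.1, 67.2 and 57.9 in astrocyte-like cells. RGL-like cells held 24.0, 24.3 and 13.7 CPM, and nIPC-like cells 8.01, 5.67 and 7.67. The few GABAergic-like cells (20, 36 and 46) held 113, 40.4 and 57.4 CPM.

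*Sox4* and *Sox11*, the SOXC pair that drives neuronal genes, had the largest UMI counts of the family. *Sox11* stood at 553, 695 and 809 CPM in RGL-like cells, 2934, 3900 and 3610.4 in nIPC-like and 4205, 4857 and 4719.7 in neuroblast-like cells. *Sox4* stood at 817, 1047 and 981 CPM in RGL-like cells, 3003, 3297 and 3034 in nIPC-like and 3606, 3862 and 3706 in neuroblast-like cells. In RGL-like cells the 1.85, 2.81 and 3.45 *Sox11* UMIs per cell were close to the 2.81, 2.40 and 3.20 of microglia-like cells, so expression in RGL-like cells as a whole was not shown. *Sox4* gave 2.73, 4.23 and 4.19 UMIs per cell in RGL-like against 2.57, 2.58 and 3.09 in microglia-like cells. The values were close in wild-type, and those of RGL-like cells were higher in the mutant libraries. In nIPC-like cells *Sox11* reached 10.4, 16.9 and 16.4 UMIs per cell, several times its values in microglia-like cells.

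**Figure D2:**
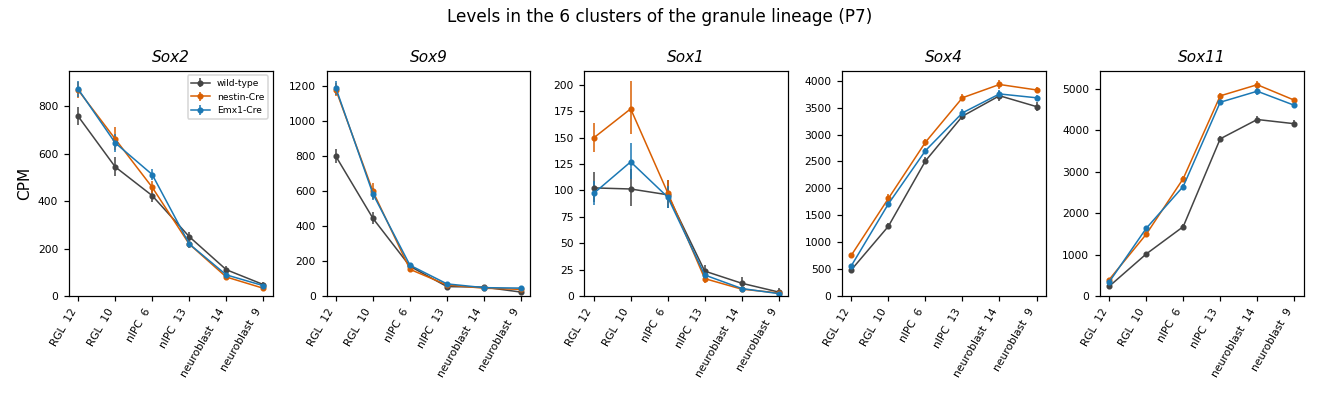
Level of 5 *Sox* genes (CPM, linear axes from 0) in the 6 clusters that make up the RGL-like, nIPC-like and neuroblast-like classes, with lines joining the clusters of 1 library and bars for exact Poisson 95% intervals. *Sox2* and *Sox9* were lower and *Sox4* and *Sox11* higher in each cluster than in the one before it from RGL-like cluster 12 to neuroblast-like cluster 14 in all 3 libraries, and *Sox11* of the wild-type library lay below both mutant libraries in each cluster.

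The 6 clusters of these classes gave a finer view. They were laid out by their leading genes, from RGL-like cluster 12 (*Gas1*, *Hopx*) and cluster 10 (*Thrsp*) through nIPC-like cluster 6 (*Neurog2*, *Top2a*) and cluster 13 (*Eomes*, *Neurod4*) to neuroblast-like cluster 14 (*Neurod2*, *Calb2*) and cluster 9 (*Stmn2*, *Rbfox1*), and no trajectory was computed. The leading genes of cluster 13 also held *Mpped1* and those of cluster 14 *Neurod6*, which were among the fixed markers of pyramidal neurons. The part of pyramidal-lineage cells in these clusters was not tested. Wild-type *Sox2* stood at 758, 544, 423, 251, 111 and 48.9 CPM in this order. Wild-type *Sox9* stood at 799, 445, 171, 54.6, 51.6 and 23.2 CPM. Wild-type *Sox11* took the opposite course, with 237, 1016, 1676, 3796, 4262 and 4161 CPM. *Sox9* had thus lost most of its level by cluster 6, where *Sox2* was still at 423 CPM, and *Sox11* had its largest step in CPM between clusters 6 and 13 and its largest fold between clusters 12 and 10. *Sox1* differed from both, with 102, 101 and 95.9 CPM in clusters 12, 10 and 6 and 23.7 in cluster 13.

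The next values cover only cells with at least 1500 UMIs, which in cluster 6 were 475 of 703 wild-type, 557 of 627 nestin-Cre and 691 of 724 Emx1-Cre cells. UMIs of a SOXB1 and a SOXC gene were found in the same cells in several clusters, not only in cluster 6. After thinning to 1500 UMIs, 32.4%, 45.2% and 47.7% of cells in RGL-like cluster 10 held both a *Sox2* and a *Sox11* UMI. In nIPC-like cluster 13 the shares were 28.1%, 25.2% and 24.7%. In cluster 6 they were 36.2% in wild-type (exact binomial 95% interval 31.9 to 40.7), 41.7% in nestin-Cre (37.5 to 45.9) and 45.7% in Emx1-Cre (42.0 to 49.5). The product of the 2 single shares was 35.2%, 40.7% and 46.8%, within the interval in each library. *Sox2* and *Sox9* in the same cluster were found together in 8.63%, 10.4% and 13.2% of cells, against products of 7.61%, 7.81% and 10.5%. The products of the mutant libraries lay below their intervals (8.00 to 13.3 and 10.7 to 15.9) and that of wild-type within its own (6.27 to 11.5). A *Sox11* UMI was also found in 48.5%, 27.2% and 26.8% of thinned microglia-like cells (64.5%, 39.2% and 32.2% before thinning).

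Cells with a positive S or G2/M score were compared with the other cells of their class, among those with at least 1500 UMIs (892, 1024 and 1097 RGL-like and 1270, 1304 and 1415 nIPC-like cells; the shallower ones were left out). In nIPC-like cells with a positive score *Sox1* stood at 67.1, 74.8 and 74.9 CPM and in the others at 18.5, 20.7 and 21.3. *Sox2* was likewise higher with a positive score (375, 417 and 455 CPM against 185, 191 and 189), as was *Sox9* (117, 137 and 146 against 46.7, 52.0 and 78.9). *Sox11* was lower with a positive score (2378, 3335 and 3111 CPM against 4278, 4925 and 4743). In RGL-like cells the direction of *Sox9* was the opposite, with 520.4, 804 and 755 CPM with a positive score and 737, 1156 and 1138 without, and *Sox2* was level (671, 789.5 and 781 against 679, 824 and 803). The score is a range and not a type of cell, and 187 to 286 RGL-like and 269 to 357 nIPC-like cells per library lay within 0.05 of the limit. The nIPC-like class joins clusters 6 and 13, which differed in the same directions. In wild-type *Sox1* stood there at 95.9 and 23.7 CPM, *Sox2* at 423 and 251 and *Sox11* at 1676 and 3796. The split by score was not made within a cluster, so score and cluster cannot be told apart.

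*Sox5* and *Sox6*, the SOXD genes, were found in RGL-like cells, glia and GABAergic-like cells. *Sox5* stood at 135, 174 and 145 CPM in RGL-like, 139, 154 and 162 in OPC-like and 113, 139 and 131 in astrocyte-like cells, whose ranges over the libraries overlapped. *Sox6* was highest in OPC-like cells (220.2, 355 and 335 CPM) and stood at 86.7, 124 and 111 in RGL-like and 101.8, 109.6 and 119.6 in GABAergic-like cells. In neuroblast-like cells *Sox6* was at 6.29, 6.61 and 5.00 CPM, below the 27.4, 11.1 and 9.35 of microglia-like cells.

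*Sox9*, the SOXE gene of stem cells and astrocytes, stood at 655, 1021 and 970.2 CPM in RGL-like, 604, 807 and 851 in astrocyte-like and 389, 424 and 503 in glial progenitor-like cells. In nIPC-like cells it was at 102, 106 and 126 CPM, or 0.362, 0.456 and 0.574 UMIs per cell against 0.267, 0.184 and 0.241 in microglia-like cells. *Sox8*, its relative in the oligodendrocyte lineage, was highest in OPC-like cells (160.3, 215 and 152 CPM) and stood at 34.5, 41.3 and 43.7 in RGL-like cells. The 2 SOXE genes thus led in different glia: *Sox9* was higher in astrocyte-like than in OPC-like cells of every library and *Sox8* the reverse.

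**Figure D3:**
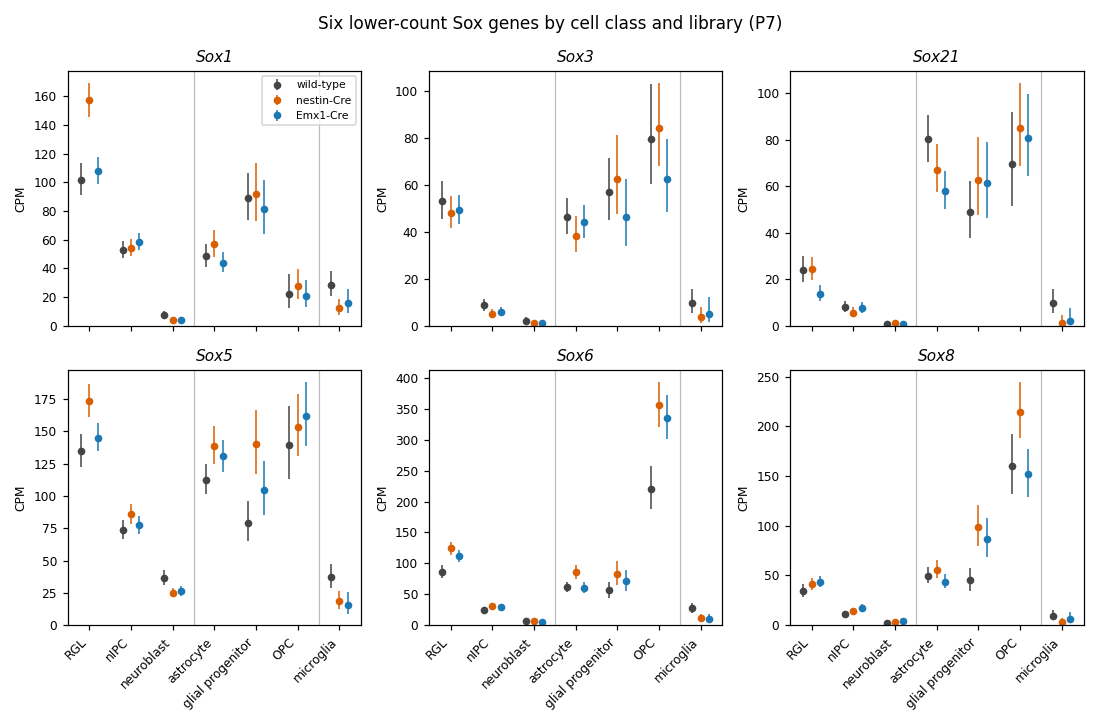
Level of *Sox1*, *Sox3*, *Sox21*, *Sox5*, *Sox6* and *Sox8* (CPM, linear axes from 0) in the same classes and libraries, with bars for exact Poisson 95% intervals. *Sox6* and *Sox8* were highest in OPC-like cells and *Sox1* in RGL-like cells among the classes drawn, and all 6 were under 40 CPM in neuroblast-like cells.

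Across the 11 classes with at least 20 cells in every library, *Sox2* was highest in RGL-like cells, followed by glial progenitor-like (664 CPM ± 166, SD, n = 3 libraries) and astrocyte-like cells (646 ± 61.8), whose ranges overlapped with their neighbours. *Sox9* in RGL-like (882 ± 198) and astrocyte-like cells (754 ± 132) also overlapped, and glial progenitor-like cells (438 ± 58.3) lay below both. *Sox3* and *Sox21* had overlapping ranges at the top, in OPC-like and glial progenitor-like cells for *Sox3* (75.4 ± 11.4 and 55.4 ± 8.22) and in OPC-like and GABAergic-like cells for *Sox21* (78.5 ± 7.95 and 70.3 ± 38.1). *Sox1* was highest in GABAergic-like cells (172 ± 42.1), of which the libraries held only 20, 36 and 46. *Sox6* and *Sox8* in OPC-like cells (303 ± 72.9 and 176 ± 34.2) were apart from the next class, and *Sox4* and *Sox11* followed the order neuroblast-like, nIPC-like and GABAergic-like with no overlap between neighbours in that order.

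Among 4559 genes at 100 CPM or more in some class, the closest patterns over the 33 sums of class and library were often those of other members. For *Sox11* they were *Gm26735* (Pearson r = 0.95 on log2(CPM + 10)), *Rnf165* (0.95) and *Sox4* (0.94), and for *Sox4* *2700081O15Rik* (0.96), *Mex3a* (0.95) and *Sox11* (0.94). For *Sox2* they were the long non-coding RNA *Pantr1* (0.92), *Sox5* (0.92) and the potassium channel *Kcnj10* (0.91), and for *Sox9* *Pantr1* (0.94), *Rgs20* (0.92) and *Kcnj10* (0.92). *Sox6* and *Sox8* were closest to each other (0.93), and *Sox8* and *Sox6* also led for *Sox21* (0.89 and 0.87). *Sox1* stood apart from these, with the purine synthesis gene *Paics* (0.91), the cyclin *Ccnd2* (0.89) and the replication gene *Rpa2* (0.87), and *Sox5* had *Sox2* (0.92), *Sqle* (0.90) and *AI854517* (0.88). *Sox3* did not reach 100 CPM. The points share libraries and depth, so these values are descriptions.

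Between genotypes, most differences of the 10 genes were under 1.5-fold. Over the 6 classes of the lineage and of glia, 52 pairs of member and class had at least 100 UMIs, of which 8 were at least 1.5-fold higher and 1 lower in nestin-Cre, and 3 higher and 1 lower in Emx1-Cre. Of the 52 pairs, 46 in nestin-Cre and 36 in Emx1-Cre lay above 0. The share of all genes above 0 was not computed. The pairs repeat the same genes against the same wild-type library, so they are not independent. The median log2 ratio over the pairs was 0.27 in nestin-Cre and 0.19 in Emx1-Cre, where the medians over all genes of a class with 100 UMIs ran from -0.0085 to 0.059 and from 0.014 to 0.065 over the 6 classes. The shares of all genes past 1.5-fold are given beside the counts of each class.

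**Figure D4:**
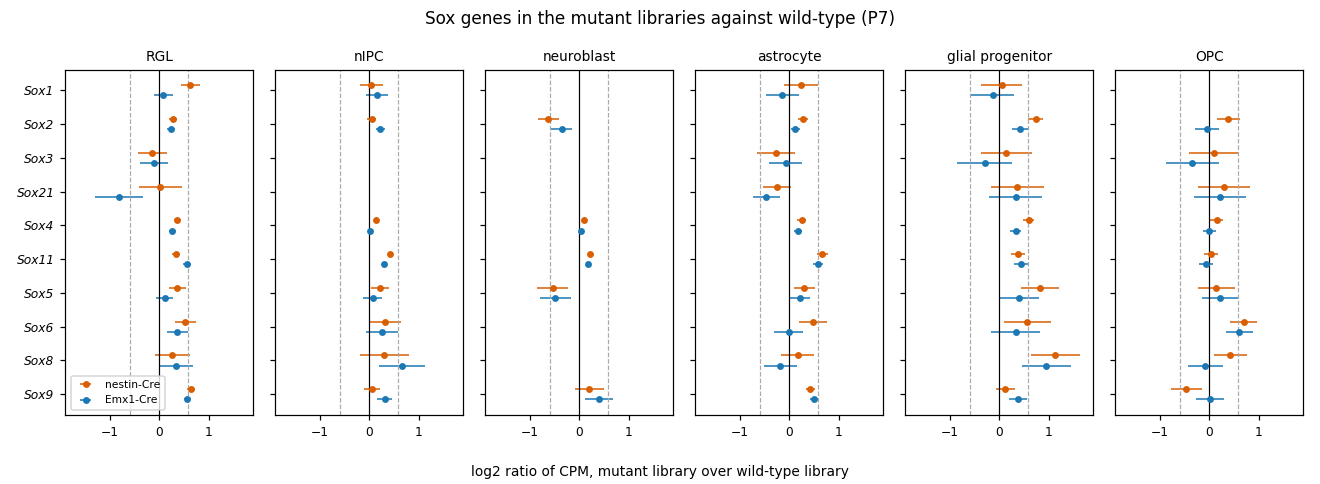
Log2 ratio of CPM in the nestin-Cre and Emx1-Cre libraries over the wild-type library for the members with at least 100 UMIs in each of 6 classes, with bars for exact conditional binomial 95% intervals and dashed lines at 1.5-fold. *Sox9* and *Sox2* in RGL-like cells, *Sox11* in nIPC-like cells and *Sox8* in glial progenitor-like cells lay above 0 in both libraries.

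In RGL-like cells 2 of 10 members were at least 1.5-fold higher and none lower in nestin-Cre (7.64% and 2.37% of 8327 genes were). In Emx1-Cre none was higher and 1 was lower (4.27% and 1.43% of 8546 genes). *Sox9* was 1.56-fold higher in nestin-Cre (log2 0.64, 0.57 to 0.72) and 1.48-fold in Emx1-Cre (log2 0.57, 0.49 to 0.64), just under the limit. The difference was present within both RGL-like clusters, with *Sox9* at 799, 1179 and 1189 CPM in cluster 12 and 445, 598.5 and 584 in cluster 10. With the clusters weighted as in wild-type the log2 ratios were 0.53 in nestin-Cre, under the limit of 1.5-fold, and 0.53 in Emx1-Cre. *Sox1* was 1.54-fold higher in nestin-Cre (log2 0.62, 0.43 to 0.82), and its interval in Emx1-Cre spanned 0 (log2 0.08, -0.12 to 0.28). *Sox2* was higher by less than 1.5-fold in both (log2 0.27, 0.20 to 0.35, and 0.24, 0.16 to 0.31). *Sox21* was lower in Emx1-Cre (log2 -0.81, -1.30 to -0.32, from 80 and 67 UMIs) and level in nestin-Cre (log2 0.02, -0.42 to 0.46). The median over the 10 members was 0.34 and 0.25, beside 0.06 and 0.06 over all genes with 100 UMIs.

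In nIPC-like cells none of 8 members was at least 1.5-fold higher or lower in nestin-Cre (8.16% of 8888 genes were higher and 5.25% lower). In Emx1-Cre 1 was higher and none lower (5.08% and 1.85% of 9028 genes), *Sox8* with 63 wild-type and 117 mutant UMIs. *Sox11* was 1.33-fold higher in nestin-Cre (log2 0.41, 0.38 to 0.44) and 1.23-fold in Emx1-Cre (log2 0.30, 0.27 to 0.33). The difference was larger within cluster 6, from 1676 to 2834 and 2646 CPM (log2 0.76, 0.70 to 0.81, and 0.66, 0.60 to 0.71), than within cluster 13 (log2 0.35 and 0.30). *Sox4*, its SOXC partner, moved less, with log2 ratios of 0.13 (0.11 to 0.16) and 0.01 (-0.01 to 0.04) in nIPC-like cells. *Sox2* was split by cluster, at 423, 458 and 512 CPM in cluster 6 and at 251, 219 and 219.8 in cluster 13. In cluster 6 the interval spanned 0 in nestin-Cre (log2 0.115, -0.0066 to 0.237) and lay above 0 in Emx1-Cre (0.27, 0.16 to 0.39). In cluster 13 both lay below 0 (-0.19, -0.34 to -0.0455, and -0.19, -0.34 to -0.0419). In microglia-like cells the log2 ratios of *Sox11* CPM were -0.90 and -0.61, while its UMIs per cell were 2.81, 2.40 and 3.20, and the part of free RNA in the nIPC-like values was not tested.

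In neuroblast-like cells *Sox11* remained slightly higher in the mutant libraries (log2 0.21, 0.18 to 0.23, and 0.17, 0.14 to 0.19), and none of 5 members was 1.5-fold higher (11.3% of 8924 and 6.68% of 8823 genes were). *Sox2* was the 1 member at least 1.5-fold lower in nestin-Cre (log2 -0.62, -0.84 to -0.40, where 8.80% of genes were), and in Emx1-Cre its log2 ratio was -0.36 (2.97% of genes were 1.5-fold lower). *Sox2* was at the level of microglia-like cells there, and in those its log2 ratios of CPM were -1.52 and -0.60, so no change in neuroblast-like cells was read from it. With the clusters weighted as in wild-type the nestin-Cre value was -0.50.

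In glia the glial progenitor-like class held the most differences, with 4 of 10 members at least 1.5-fold higher in nestin-Cre (6.62% of 3820 genes were) and 1 in Emx1-Cre (3.72% of 3842). None was 1.5-fold lower in either (5.31% and 2.32% of genes were). *Sox8* stood at 45, 98.3 and 86.6 CPM (log2 1.13, 0.64 to 1.62, and 0.95, 0.45 to 1.45) and *Sox2* at 499, 831 and 662 CPM (log2 0.74 and 0.41). *Sox5* (log2 0.82, 0.44 to 1.21) and *Sox4* (log2 0.59, 0.48 to 0.70) were the others in nestin-Cre. *Sox9* in the same cells was at 389, 424 and 503 CPM, with log2 ratios of 0.12 (-0.07 to 0.31) and 0.37 (0.19 to 0.55).

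In OPC-like cells 1 of 9 members was 1.5-fold higher in each mutant library (7.29% of 3582 and 3.95% of 3523 genes were) and none lower (4.10% and 1.59%). It was *Sox6* in both, at 220.2, 355 and 335 CPM (log2 0.69, 0.42 to 0.97, and 0.60, 0.33 to 0.88). In astrocyte-like cells 1 of 10 was higher in nestin-Cre (5.65% of 6925 genes) and none in Emx1-Cre (3.57% of 7416), and none was lower (2.34% and 1.40%). That gene was *Sox11* at 387, 613 and 576 CPM, which is 1.58, 2.66 and 2.70 UMIs per cell. Microglia-like cells held 2.81, 2.40 and 3.20, so the nestin-Cre value lay slightly above theirs and the other values below. Expression in astrocyte-like cells was not read from values this close. At a finer clustering the sign of the nestin-Cre ratio turned (log2 -0.32). *Sox9* in astrocyte-like cells was 1.34-fold and 1.41-fold higher (log2 0.42, 0.33 to 0.51, and 0.49, 0.41 to 0.58).

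Genes linked to each group were followed in the same way. Of 7 SOXC-linked neuronal genes with 100 UMIs in nIPC-like cells, 3 were at least 1.5-fold higher in both mutant libraries and none was lower, where 8.16% and 5.08% of all genes were higher and 5.25% and 1.85% lower, with medians of 0.48 and 0.29 beside 0.029 and 0.065 over all genes. The 3 were the bHLH factor *Neurod1* (521, 977 and 812 CPM), *Stmn2*, a regulator of microtubules (63.9, 160.1 and 104 CPM), and the semaphorin receptor *Nrp1* (43.1, 82.9 and 71.3 CPM). Of 12 SOXB1-linked genes in the same cells, *Hes5*, a target of Notch, and *Fabp7*, a lipid carrier of radial glia, were lower in both, with *Hes5* at 245, 42.7 and 133 CPM and *Fabp7* at 569, 298 and 378. *Pou3f2*, a partner of SOX proteins, was higher in Emx1-Cre alone (58.5, 83.0 and 94.8 CPM). Of 6 genes linked to SOXE and SOXD, the astrocyte filament *Gfap* (49.3, 28.7 and 32.4 CPM) and the oligodendrocyte factor *Olig1* (17.6, 6.84 and 9.78 CPM) were lower in both. The part of free RNA in these values was not tested. In RGL-like cells the SOXC-linked medians were 0.60 and 0.43 over 7 genes, the SOXB1-linked 0.26 and 0.06 over 13, and those linked to SOXE and SOXD -0.06 and 0.01 over 8.

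In the neurospheres the comparison had replicates, and 17753 genes were tested with edgeR's quasi-likelihood test. Totals lay between 59821311 and 62474602 counts per library. *Larp7* stood at 42.8 and 35.0 CPM in the 2 wild-type libraries and at 4.17, 6.35 and 4.39 in the 3 knockout libraries (log2 fold change -2.97, SE 0.21, adjusted p = 0.0198). At an adjusted p under 0.05, 6 genes (0.0338%) were called, 3 higher (0.0169%) and 3 lower (0.0169%), with *Larp7* among the lower. None of the 10 *Sox* genes was called, 2 had an unadjusted p under 0.05 (21.7% of all genes did), and DESeq2 called 1, *Sox9*, where it called 10.8% of 14697 genes, a share like that of the members. The libraries of the 2 groups did not overlap for *Sox9* and *Sox11*, as for 42.6% of all genes. The study counts the libraries as mice, while the labels do not say whether they came from separate animals, and p-values measure the spread between these libraries, which may be technical.

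**Figure D5:**
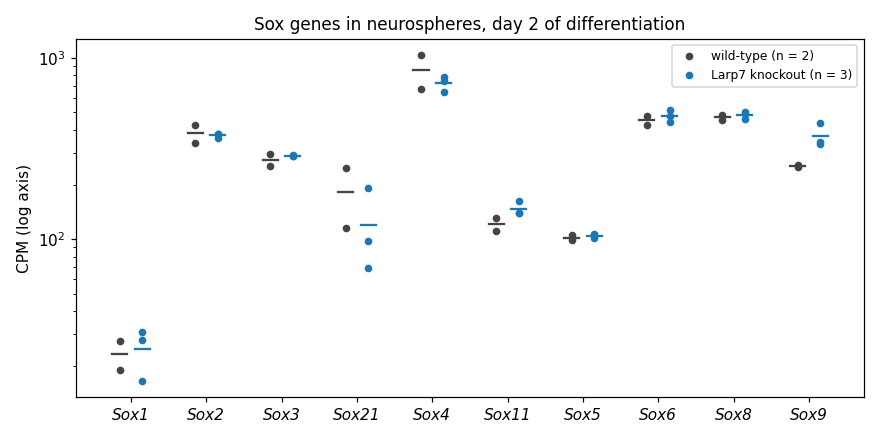
CPM (log axis) of the 10 *Sox* genes in each neurosphere library at day 2 of differentiation, with points for 2 wild-type and 3 *Larp7* knockout libraries and lines at the group means. *Sox9* and *Sox11* were the 2 genes whose libraries did not overlap between groups, and the wild-type libraries lay far apart for *Sox4* and *Sox21*.

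*Sox9* stood at 255 and 251 CPM in wild-type and 342, 437 and 336 in knockout libraries. All knockout libraries were above both wild-type ones. Its mean was 253 ± 2.95 (SD, n = 2) against 372 ± 56.3 (n = 3), a log2 fold change of 0.55 (SE 0.12, 95% interval 0.26 to 0.85, edgeR adjusted p = 0.108; DESeq2 adjusted p = 0.00112). *Sox11* stood at 111 and 130 CPM in wild-type and 161, 139 and 140 in knockout libraries, a smaller difference (log2 0.28, SE 0.10, 0.05 to 0.52, edgeR adjusted p = 0.180). Over 9 other settings the log2 fold change of *Sox9* ranged from 0.42 to 0.62 (adjusted p from 0.00112 to 0.340 over edgeR and DESeq2 fits) and that of *Sox11* from 0.18 to 0.40 (adjusted p from 0.0985 to 0.370). In these bulk samples fewer cells of a type and less RNA per cell cannot be told apart.

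*Sox2* stood at 341 and 428 CPM in wild-type and 380.5, 378 and 363 in knockout libraries, which lay between the wild-type ones (log2 -0.04, -0.28 to 0.21). *Sox4* stood at 677 and 1035 CPM in wild-type and 781, 749 and 646 in knockout libraries (log2 -0.24, -0.67 to 0.20), so the 2 wild-type libraries differed from each other more than the groups did. Without wild-type replicate 1, which leaves a single wild-type library assumed to vary like the knockout ones, *Sox4* was called lower with 4.57% of 18707 genes (log2 -0.51, edgeR adjusted p = 0.0482; 0.0482 to 0.757 over 9 other edgeR and DESeq2 settings), and without wild-type replicate 2 its sign turned (log2 0.10). *Sox21* was spread even wider, with 115 and 247 CPM in wild-type and 191, 97.3 and 69.3 in knockout libraries (log2 -0.61, -1.73 to 0.52). *Sox1*, *Sox3*, *Sox5*, *Sox6* and *Sox8* had log2 fold changes between 0.03 and 0.10 and overlapping libraries. The interval was narrowest for *Sox5* (-0.11 to 0.18) and widest for *Sox1* (-0.58 to 0.78).

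No gene of the 3 linked lists was called. At an unadjusted p under 0.05 there were 3 of 14 SOXB1-linked, 2 of 6 SOXC-linked and 4 of 12 genes linked to SOXE and SOXD, beside 21.7% of all genes. Median log2 fold changes were 0.04, -0.19 and -0.10, beside 0.01 over all genes. Among those linked to SOXE and SOXD, *Pdgfra* of the oligodendrocyte lineage was at higher and *Slc1a3* and *Fgfr3* of astrocytes and stem cells at lower values in knockout libraries, without passing the test. *Pdgfra* stood at 820 and 765 CPM in wild-type and 1115, 1267 and 1134 in knockout libraries (log2 0.56, edgeR adjusted p = 0.0933). *Slc1a3* stood at 2012 and 2449 CPM in wild-type and 1749, 1113 and 1424 in knockout libraries (log2 -0.64, edgeR adjusted p = 0.149), and *Fgfr3* at 140.1 and 125 against 51.3, 80.04 and 88.4 (log2 -0.85, edgeR adjusted p = 0.119). The oligodendrocyte factors *Olig1* and *Olig2* in the same list had log2 fold changes of -0.16 and 0.15. The summed level of the 4 GABAergic markers tested of 11 was 28.5 and 55.6 CPM in wild-type and 20.9 to 26.0 in knockout libraries, and that of the 2 microglia markers tested of 11 was 20.0 and 25.4 against 19.5 to 22.9. The 5 endothelial markers tested of 8 summed to 14.6 and 9.71 CPM against 17.0 to 22.6, and the 4 tested of 7 of vascular leptomeningeal cells to 0.963 and 0.382 against 0.843 to 1.13. The part of these in the *Sox* values was not tested.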

How the data were processed

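Single-cell RNA was counted in 3 dentate gyrus libraries and bulk RNA in 5 neurosphere libraries. The deposited single-cell values are UMI counts, whole numbers for each gene in each barcode, which the authors made with Cell Ranger (methods and file headers name different versions). The deposited neurosphere values are whole read counts per Entrez gene, which the authors made from reads aligned by Minimap2 to Ensembl's transcriptome of the mouse. The submitters' processing notes list featureCounts, Trimmomatic and mm10 without a role. Of 10 columns 5 were used, as the other 5 match no label. ATAC-seq and CUT&Tag were not analysed here.

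Cells with over 500 genes and under 15% mitochondrial UMIs were log-normalized and scaled within each library (scanpy 1.11.5, 2000 variable genes, 30 components, 15 neighbours, Leiden resolution 1), with all *Sox* and cell cycle genes and their correlates (305 genes) left out. A cluster was named when at least 3 markers were detected in 10% of its cells and raised 1.5-fold, with a mean log2 of 0.5, and its 10 leading genes held more markers of its own class than of another. Doublets were kept, and leaving out the 6% with the highest Scrublet scores was an alternative. Counts of the neurospheres were fitted over all genes with edgeR 4.0.16 (TMM, filterByExpr, quasi-likelihood, Benjamini-Hochberg) in R 4.3.3, with DESeq2 1.42.0 as an alternative. The steps were tested on simulated data. Named genes were by rule the 10 members, *Larp7*, genes of the linked lists that passed the neurosphere test (none did), and the 3 closest patterns per member at 100 CPM or more. The list genes given with values (*Prox1*, *Neurod1*, *Stmn2*, *Nrp1*, *Hes5*, *Fabp7*, *Pou3f2*, *Gfap*, *Olig1*, *Olig2*, *Pdgfra*, *Slc1a3*, *Fgfr3* and the other *Sox* genes) were chosen after their values were seen. Members, lists and limits were chosen with earlier results of these data known. Sequences and positions are those of RefSeq GRCm38.p6, where 39373 of 40814 genes of the count table had a symbol.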

Additional observations from a re-analysis of the deposited data

How the results depend on the processing

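Over 7 other settings of the single cells, 741 values for the members moved by less than their counting interval and 182 moved by more. Turned signs were counted apart only for ratios of at least 1.5-fold, of which 1 turned (*Sox11* in astrocyte-like cells of nestin-Cre, log2 -0.32 at Leiden resolution 2). Smaller ratios turned as well and are within the other counts. In astrocyte-like cells *Sox11* in Emx1-Cre reached log2 -0.37, and *Sox4* reached -0.18 in nestin-Cre and -0.23 in Emx1-Cre. Pairs of member and class at least 1.5-fold higher in nestin-Cre numbered 8, 5 after thinning to 1500 UMIs and 11 with at least 1000 genes per cell; lower pairs numbered 1, and 3 after thinning, 2 without the highest doublet scores or with cell cycle genes kept, and 0 at resolution 2, with scaling over all libraries or with clusters weighted as in wild-type. In Emx1-Cre the higher pairs numbered 3, and 1 after thinning and 5 with cell cycle genes kept or at least 1000 genes per cell, and the lower numbered 1, 2 without the highest doublet scores and 0 with at least 1000 genes. In the neurospheres 3 genes were called higher and 3 lower. Without a filter on low counts 1 was higher, and DESeq2 called 728 higher and 863 lower, with 1 *Sox* gene. Leaving out 1 replicate gave 0 to 1050 higher and 0 to 855 lower genes and 0 to 1 *Sox* genes, and the highest values were those without wild-type replicate 1. Leaving out 1 library turned the direction of 8 members, whose log2 fold changes ranged from -0.14 to 0.39 for *Sox1* (turned without wild-type replicate 2 and, at -0.08, without knockout replicate 2), -0.19 to 0.14 for *Sox2*, -0.022 to 0.19 for *Sox3*, -1.12 to 0.053 for *Sox21*, -0.51 to 0.10 for *Sox4*, -0.012 to 0.081 for *Sox5*, -0.0054 to 0.17 for *Sox6* and -0.0041 to 0.079 for *Sox8*. *Sox5*, *Sox6* and *Sox8* turned without wild-type replicate 1 and the others without wild-type replicate 2. The cause was not tested. *Sox9* and *Sox11* kept their direction in all 9 settings.

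A replicate block could use only the 2 numbers that both groups share. It called 0 genes higher and 0 lower, and *Sox1* turned to -0.024. Libraries of the same number deviated together (r = 0.32 and 0.52) and those of unlike number the opposite way (r = -0.52 and -0.32). The 2 wild-type libraries were centred on their own mean, so their deviations mirror each other by construction. The values are therefore not 2 separate pairs. With no shared source in the labels, the numbers are only names. The neurospheres rest on 2 wild-type and 3 knockout libraries, and in the single cells 1 library per genotype limits each ratio.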

Other observations

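The *Sox* genes outside the 10 members included genes of the oligodendrocyte lineage and of vessels. *Sox10*, the SOXE gene of the oligodendrocyte lineage, stood at 311, 339 and 294 CPM in OPC-like cells of the wild-type, nestin-Cre and Emx1-Cre libraries and at 1.20, 1.17 and 0.612 CPM in RGL-like cells, from at most 5 UMIs a library. *Sox17*, *Sox18* and *Sox7*, the SOXF genes of blood vessels, led in endothelial-like cells, where *Sox17* stood at 82.4, 91.9 and 94.0 CPM. *Sox12*, the third SOXC gene, stood at 39.6, 36.2 and 39.4 CPM in RGL-like and 58.3, 66.2 and 62.8 in neuroblast-like cells.

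In the neurospheres *Sox10* stood at 33.8 and 13.3 CPM in wild-type and 54.5, 100.8 and 133 in knockout libraries, with no overlap (log2 2.03, SE 0.50, edgeR adjusted p = 0.118). It did not pass the test, nor did any other of the 5 *Sox* genes outside the members that were tested.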
